A study of Mus musculus with 2 samples.

Results

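AP-1 and early growth response (EGR) factors were followed through 10 genes chosen by name, out of 27031 genes with a count. They are 4 genes of the Fos family (*Fos*, *Fosb*, *Fosl1* and *Fosl2*), 3 of the Jun family (*Jun*, *Junb* and *Jund*), *Atf3*, *Egr1* and *Egr2*. AP-1 is a dimer of basic leucine zipper proteins, usually a Jun protein with a Fos or ATF protein, that binds DNA and regulates transcription. The EGR proteins are zinc finger transcription factors. Most of these genes are immediate-early genes, transcribed soon after a cell meets a growth factor, a microbial product or a mechanical or thermal stress, and in macrophages they take part in activation and differentiation.

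The cells came from MC38 colorectal tumors grown under the skin of female C57BL/6 mice aged 6 to 8 weeks. From the day of implantation the mice received vehicle (control) or telmisartan, a drug that blocks a receptor of angiotensin II, by gavage at 5 mg/kg a day, and tumors were taken on day 13. Tumors were digested for 60 min at 37 °C, live CD45+ cells were sorted, those of 5 mice per group were pooled, and each pool was marked with a Sample Tag (tag 1 control, tag 2 telmisartan) before both were captured together. Each group is therefore 1 pool, with no replicate and no test between groups, and mouse-to-mouse spread and differences in handling cannot be told apart from treatment. All intervals below are 95% intervals for counting error only.

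After filtering, 4535 control cells held 41591125 UMIs (counted molecules), with a median of 8689 per cell, and 4434 telmisartan cells held 30921742, with a median of 6357.5. Since telmisartan cells were shallower, levels are UMIs of a gene per 1000000 UMIs of the same cells (CPM). Differences are log2 ratios of CPM, telmisartan over control, so that a positive value is higher with telmisartan. Clusters were assigned to 4 classes by marker genes. Macrophage-like cells numbered 4049 in control and 3994 in telmisartan, dendritic-like cells 367 and 302, T-like cells 71 and 114, and neutrophil-like cells 48 and 24. *Ptprc*, which encodes the sorted antigen CD45, had a UMI in 85.5% of control and 75.4% of telmisartan macrophage-like cells, and in 91.5% and 87.7% of T-like cells. It was found least often in the shallow neutrophil-like cells, in 32 of 48 control and 12 of 24 telmisartan cells.

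In macrophage-like cells the family did not move as 1 block. *Fos*, *Jun* and *Atf3* were lower with telmisartan, whereas *Fosb*, *Fosl1*, *Fosl2*, *Junb*, *Jund*, *Egr1* and, by little, *Egr2* were higher, of which *Jund* and *Egr2* lie lower when UMIs per cell are not scaled for depth. All 10 members had at least 100 UMIs in both groups together. Over the 11073 genes with as many UMIs, 4.72% were at least 1.5-fold higher with telmisartan and 2.21% at least 1.5-fold lower. Among the members, 2 of 10 (*Fosl1* and *Fosl2*) were at least 1.5-fold higher and 0 of 10 at least 1.5-fold lower. *Egr1* (log2 ratio 0.56) and *Fosb* (0.53) lay just inside the log2 value of that fold, 0.58. The median log2 ratio of the members was 0.29, against -0.045 over all 11073 genes, of which 42.9% were higher. Without scaling for depth the median over all genes moves to -0.45, and against that shift *Jund* at -0.28 and *Egr2* at -0.36 lie above the all-gene median.

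*Fos* encodes c-Fos, which cannot pair with itself and binds DNA with a Jun partner. It stood at 2923 CPM (95% interval 2906 to 2941) in control macrophage-like cells and at 2126 CPM (2109.5 to 2144) in telmisartan cells. The log2 ratio was -0.46 (-0.47 to -0.44), and 4.96% of all genes had a lower one. *Fosb*, whose protein resembles c-Fos and whose spliced short form lacks much of the activation domain, went the other way. Its level was 1092 CPM (1081 to 1102) in control and 1581 CPM (1566 to 1595) in telmisartan cells, a log2 ratio of 0.53 (0.51 to 0.55). Counts per gene do not separate the short form from the full one. *Fosl2* encodes FRA-2, a Fos relative without the strong activation domain of c-Fos. It had 319 CPM (313 to 324) in control and 492 CPM (484 to 500.3) in telmisartan cells, a log2 ratio of 0.63 (0.59 to 0.66). *Fosl1*, which encodes the related FRA-1, gave the widest difference of the 10 genes from the fewest molecules, 257 UMIs in control and 632 in telmisartan cells. These are 6.74 CPM (5.94 to 7.62) and 22.3 CPM (20.6 to 24.1), a log2 ratio of 1.73 (1.51 to 1.94), which placed *Fosl1* at rank 20 of 11073 genes from the highest.

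The Jun family showed the same kind of split. *Jun* encodes c-Jun, the Jun protein with the strongest activating function, and was at 536 CPM (529 to 543) in control and 398 CPM (391 to 405) in telmisartan macrophage-like cells, a log2 ratio of -0.43 (-0.46 to -0.40). *Junb*, whose protein can antagonize c-Jun at some promoters, was at 845 CPM (835 to 854) and 1156 CPM (1144 to 1169), a log2 ratio of 0.45 (0.43 to 0.48). *Jund*, the member that resting cells keep expressing, was nearly level, with 1161 CPM in control and 1268 CPM in telmisartan cells and a log2 ratio of 0.13 (0.11 to 0.15). *Atf3* encodes a stress-induced ATF protein that restrains inflammatory gene expression in macrophages. It sat with *Fos* and *Jun*, at 479 CPM (472 to 486) in control and 388 CPM (381 to 395) in telmisartan cells, a log2 ratio of -0.30 (-0.34 to -0.27).

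The zinc finger genes differed from each other. *Egr1* was at 249 CPM (244 to 254) in control and 366 CPM (359 to 373) in telmisartan macrophage-like cells, a log2 ratio of 0.56 (0.52 to 0.60). *Egr2*, a factor of macrophage activation and of nerve myelination, had 159 CPM in control and 165 CPM in telmisartan cells. Its log2 ratio of 0.052 (-0.0036 to 0.11) has an interval that includes 0.

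The opposite directions inside each family can be put as a ratio of 2 genes in the same cells, into which no total count enters. These ratios were formed after the members' values had been seen. In macrophage-like cells there were 0.373 *Fosb* UMIs per *Fos* UMI in control and 0.743 in telmisartan, a log2 difference of 0.99 (0.97 to 1.02, Woolf interval). The ratio was higher with telmisartan in 13 of 13 clusters, 7 of 7 macrophage subclusters and 4 of 4 classes, and its smallest log2 difference among the subclusters was 0.26 in subcluster 4. *Junb* UMIs per *Jun* UMI was 1.58 in control and 2.91 in telmisartan macrophage-like cells, a log2 difference of 0.88 (0.84 to 0.92). This ratio was higher with telmisartan in 7 of 7 subclusters and in 12 of 13 clusters. The exception was the cluster of neutrophil-like cells, where the log2 difference was -1.56 (-2.06 to -1.06), but 76 of the 135 *Jun* UMIs of its telmisartan cells were in 1 cell.

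**Figure D1:**
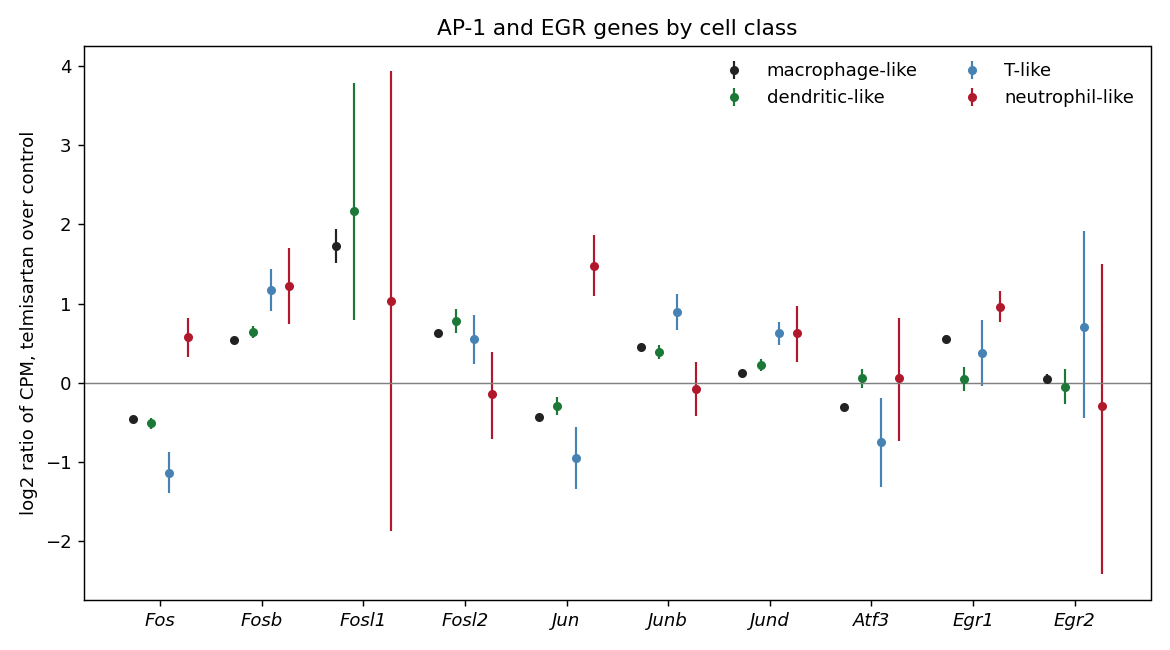
Log2 ratio of CPM, telmisartan over control, for the 10 genes (x axis) in the 4 cell classes (colors); points are pooled sums and bars are 95% counting intervals, and *Fosl1* in T-like cells has no point because control had 0 UMIs. *Fos* lies at -0.46 and *Fosb* at 0.53 in macrophage-like cells, while in neutrophil-like cells *Fos* lies at 0.57.

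At equal depth, shares of cells with a UMI pointed the same way as the sums. Cells were thinned to 1000 UMIs each for this, which left out 45 control and 71 telmisartan macrophage-like cells that were shallower. A *Fos* UMI was found in 78.6% (77.3 to 79.9%) of control and 69.8% (68.4 to 71.3%) of telmisartan cells, and before thinning in 94.4% and 91.8%. For *Fosb* the thinned share was 54.4% (52.9 to 56.0%) in control and 67.3% (65.8 to 68.8%) in telmisartan cells, whereas the unthinned shares were 88.9% and 91.1%. *Jun* was found in 36.0% (34.5 to 37.5%) of control and 27.7% (26.3 to 29.1%) of telmisartan cells after thinning, and in 81.1% and 64.2% before it. *Junb* was found in 52.6% (51.0 to 54.2%) and 63.4% (61.9 to 64.9%) after thinning, and in 91.2% and 93.1% before it. Unthinned shares of *Egr1* (41.3% in control and 40.8% in telmisartan cells), *Jund* (96.3% and 95.6%) and *Egr2* (48.7% and 45.4%) were lower with telmisartan, against their sums. No class is known to lack these genes, so RNA freed from other cells was gauged with the macrophage gene *Lyz2*, which had a UMI in 74.1% of T-like cells (median depth 3243 UMIs) against 98.4% of macrophage-like cells (median depth 7558), and in 31.9% against 87.7% once cells were thinned to 500 UMIs.

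*Egr1* was seen in a minority of cells. After thinning, an *Egr1* UMI was found in 16.2% (15.0 to 17.3%) of control and 19.1% (17.9 to 20.4%) of telmisartan cells, and the 10% of cells with the most held 77.6% and 78.5% of its UMIs. For *Egr2*, about as sparse, the same 10% of cells held 80.3% and 77.8%, and such a share depends largely on how sparse a gene is. At least 5 *Egr1* UMIs were counted in 24 of 4004 control and 65 of 3923 telmisartan cells. Cells with a UMI of *Jun* and of *Egr1* were 1.27 times as many as the product of the separate shares in control and 1.61 times in telmisartan cells. The same quotient was 1.71 and 1.54 for *Egr1* with *Egr2*, and 0.966 and 0.930 for *Fosl2* with *Jun*. The median cell held UMIs of 4 of the 10 genes in both groups.

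Macrophage-like cells were clustered again, with the 10 members kept out of the genes used, into 7 subclusters that are named by number and leading genes. Subcluster 1 (1447 control and 1102 telmisartan cells) is led by *Dcstamp*, *Lilra6* and *Cd24a*, subcluster 2 (775 and 877) by *Gas6*, *Atp6v0d2* and *Cbr2*, and subcluster 3 (435 and 849) by the interferon-induced genes *Ifit3*, *Ifit2* and *Ifit1*. Subcluster 4 (412 and 565) is led by *Serpinb2*, *Il6* and *Hmox1*, subcluster 5 (366 and 337) by mitotic genes such as *Ccna2*, subcluster 6 (448 and 177) by *Serpina3g*, *Iigp1* and *Calhm6*, and subcluster 7 (166 and 87) by DNA replication genes such as *Ung* and *Mcm5*. Depth differed widely among them, with a median of 2568.5 UMIs per cell in subcluster 3 and 13774 in subcluster 7.

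Levels were ordered over the subclusters within each group, since the groups differ in level and in subcluster shares. In both groups *Fos*, *Fosl2*, *Jun*, *Junb*, *Jund* and *Atf3* were highest in subcluster 3. *Fos* had 3425 CPM (3330 to 3521) there in control cells, overlapping subcluster 2 at 3335 CPM (3295 to 3376), and was lowest in subcluster 4 at 2117 CPM (2055 to 2179). In telmisartan cells *Fos* had 3165 CPM (3098 to 3232) in subcluster 3, and subcluster 7 was lowest at 1524 CPM (1451 to 1599.5). *Atf3* had 993 CPM (943 to 1046) in control and 824 CPM (790 to 859) in telmisartan cells of subcluster 3, with subcluster 6 next in both groups. In telmisartan cells *Atf3* in subcluster 6 (395 to 462 CPM) overlapped subcluster 2 (373 to 402 CPM). The top of the *Fosb* order was not the same in the 2 groups. In control, subcluster 3 (1174 to 1289 CPM) overlapped subcluster 2 (1164 to 1212 CPM), whereas in telmisartan cells *Fosb* was highest in subcluster 2, at 1846 CPM (1815 to 1878), above subcluster 3 at 1684 CPM (1636 to 1734).

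*Fosl1* and *Egr1* were highest in subcluster 4, the cells with *Il6* and *Serpinb2*, in both groups. *Fosl1* had 41.2 CPM (33.0 to 50.8) there in control and 73.8 CPM (63.8 to 84.9) in telmisartan cells, and was lowest in subcluster 2 in both. That lowest place overlapped subclusters 5, 6 and 7 in control and subclusters 6 and 7 in telmisartan. *Egr1* had 484 CPM (455 to 514) in control and 812 CPM (778 to 847) in telmisartan cells of subcluster 4, with subcluster 3 next in both groups. The order of *Egr2* differed between the groups. In control cells it was highest in subcluster 1, at 203 CPM (196 to 211), and lowest in subcluster 2, at 109.6 CPM (102 to 117). In telmisartan cells subcluster 4 (201 CPM), subcluster 3 (198 CPM) and subcluster 1 (179 CPM) came first, each interval overlapping that of the next, and subcluster 7 was lowest at 112 CPM (92.9 to 134), overlapping subcluster 6 at 140.1 CPM (122 to 160.4).

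Within subclusters, *Fosb*, *Fosl1*, *Fosl2* and *Junb* were higher with telmisartan in 7 of 7, with every interval above 0. Their log2 ratios ran from 0.30 to 0.64 for *Fosb*, from 0.21 to 0.82 for *Fosl2*, from 0.30 to 0.69 for *Junb* and from 0.84 to 2.48 for *Fosl1*. *Jun* was lower in 7 of 7, from -1.03 in subcluster 7 to -0.11 in subcluster 4, where the interval (-0.23 to 0.0069) includes 0. *Fos* and *Atf3* were lower in 6 of 7, and both were slightly higher in subcluster 4. *Fos* in subcluster 7 had 2707 CPM in control and 1524 CPM in telmisartan cells, a log2 ratio of -0.83 (-0.91 to -0.75). In subcluster 4 it had 2117 CPM in control and 2229 CPM in telmisartan cells, a log2 ratio of 0.074 (0.018 to 0.13). *Egr1* was higher in 4 of 7, each interval above 0, and lower in 3, of which subclusters 6 and 7 have intervals that include 0. It had 228 CPM in control and 448 CPM in telmisartan cells in subcluster 2, a log2 ratio of 0.97 (0.89 to 1.06). The largest subcluster, 1, had 247 CPM in control and 209.6 CPM in telmisartan cells of *Egr1*, a log2 ratio of -0.24 (-0.32 to -0.16). Differences between subclusters were not tested. With the members kept among the genes used for clustering, *Egr1* was higher in 5 of 7, and the counts of the other 9 genes were the same.

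**Figure D2:**
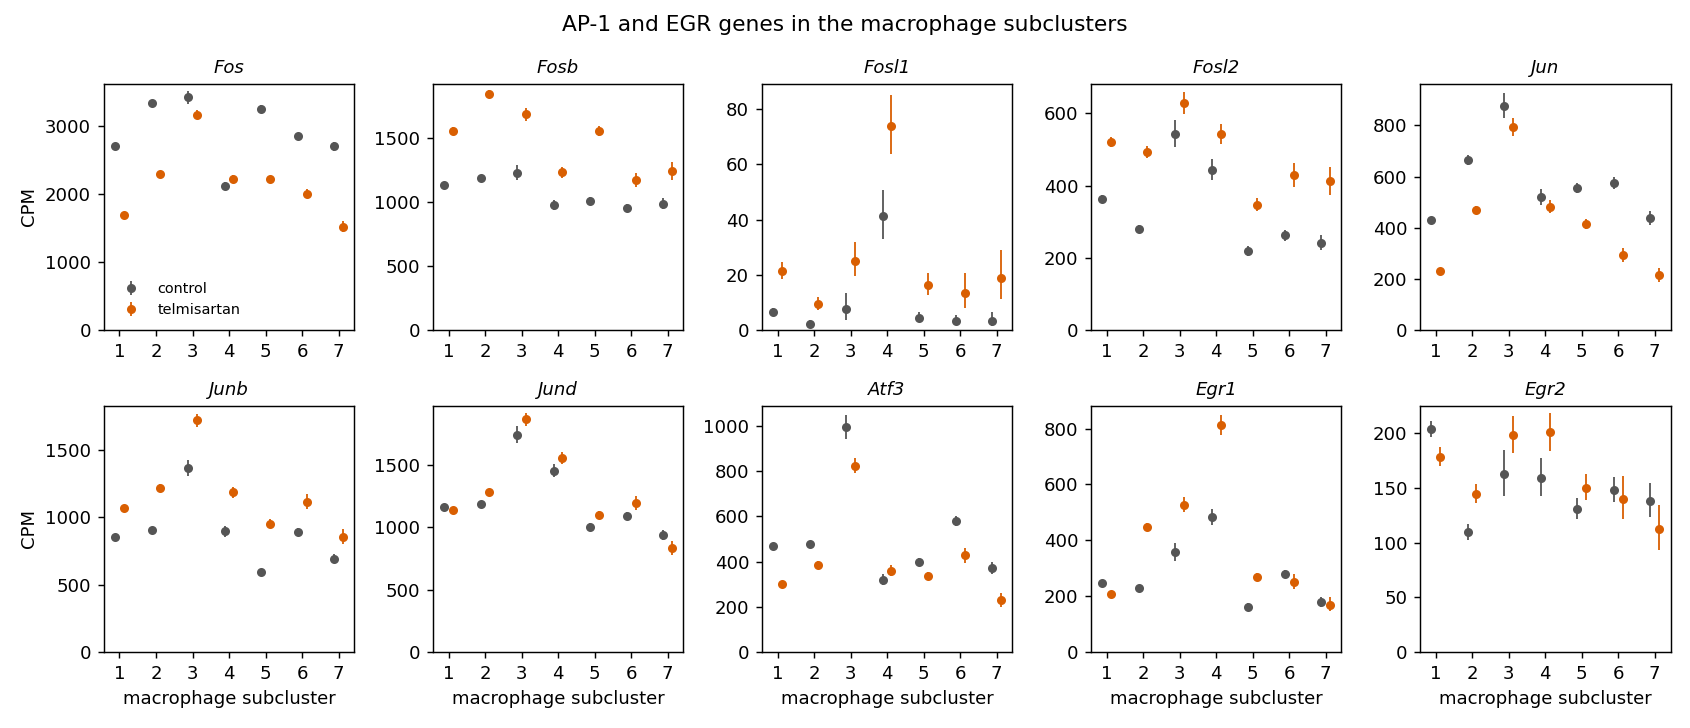
CPM of each gene (1 panel per gene, y axis from 0) in macrophage subclusters 1 to 7 (x axis), control in grey and telmisartan in orange, with exact Poisson 95% intervals. Telmisartan points lie above control in 7 of 7 subclusters for *Fosb*, *Fosl1*, *Fosl2* and *Junb* and below it in 7 of 7 for *Jun*.

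The differences were also read within ranges of depth, which goes with subcluster. Macrophage-like cells were divided into 4 ranges of UMIs per cell after the members' values had been seen (1000 to 4000, 4000 to 8000, 8000 to 16000, and 16000 or more). The log2 ratio of *Fos* was 0.0035 (-0.052 to 0.059) in the shallowest range, -0.46 and -0.48 in the middle ranges and -0.73 in the deepest. The *Fos* levels in the shallowest range were 2569 CPM in control and 2575 CPM in telmisartan cells. In subcluster 3, whose cells are also shallow, *Fos* was lower, at a log2 ratio of -0.11 (-0.16 to -0.063). *Jund* was level inside every range, with log2 ratios of 0.0088, 0.040, 0.0094 and 0.0054 beside 0.13 over all cells. *Jund* was also more abundant per UMI in shallow cells, at 1929 CPM in the shallowest and 987 CPM in the deepest control cells. *Jun* was lower with telmisartan in all 4 ranges, from -0.30 in the shallowest to -0.80 in the deepest. *Fosb* was higher in all 4, between 0.43 and 0.59, and *Junb* between 0.27 and 0.44. *Fosl2* was higher in all 4 as well, but by less than 1.5-fold in the shallower ranges (log2 ratios of 0.18 and 0.38) and at 0.62 and 0.62 in the deeper ones. The log2 ratio of *Fosl1* was 0.93 in the shallowest and 2.65 in the deepest range, and that of *Egr1* 0.75 and 0.32, the opposite order.

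**Figure D3:**
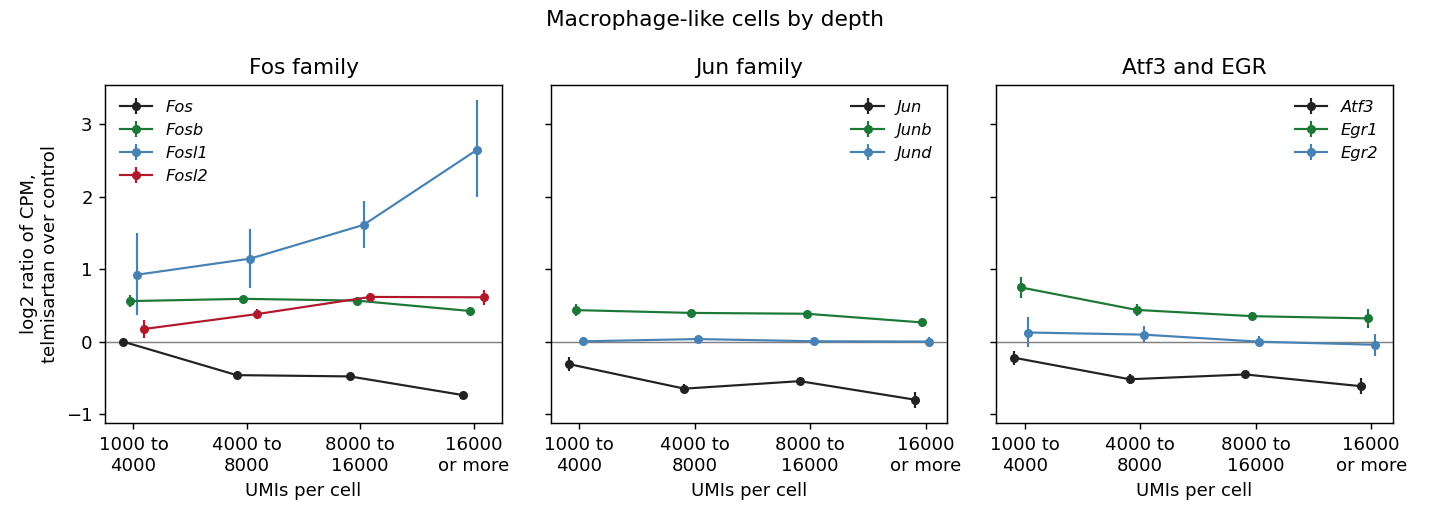
Log2 ratio of CPM (y axis), telmisartan over control, in macrophage-like cells of 4 ranges of UMIs per cell (x axis), by gene family, with 95% counting intervals. *Fos* goes from 0.0035 in the shallowest to -0.73 in the deepest range, *Fosl1* from 0.93 to 2.65, and *Jund* stays between 0.0054 and 0.040.

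The classes differed in the level of each gene, ordered here within each group. *Egr1*, *Fos*, *Fosl2*, *Jun* and *Junb* were highest in neutrophil-like cells in both groups, clear of the next class. *Egr1* stood at 4886 CPM (4455 to 5348) in control and 9520.4 CPM (8661 to 10442) in telmisartan neutrophil-like cells. It had a UMI in 64 of 72 neutrophil-like cells at a median depth of 1769 UMIs, and in 50 of 72 after thinning to 500 UMIs. In the next place of the *Egr1* order the groups differed, with dendritic-like cells (278 to 317 CPM) above macrophage-like cells (244 to 254 CPM) in control, and macrophage-like (359 to 373 CPM) above dendritic-like cells (284 to 332 CPM) in telmisartan. *Fos* ran from neutrophil-like over macrophage-like and dendritic-like to T-like cells in both groups, with no overlap of neighbours. *Junb* was next highest in macrophage-like cells, but overlapped T-like cells in telmisartan.

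*Junb* in control was higher in dendritic-like (708 to 770 CPM) than in T-like cells (499 to 645 CPM), whereas in telmisartan dendritic-like (922 to 1007 CPM) and T-like cells (964 to 1156 CPM) overlapped. *Jund* was high in T-like cells, at 1484 CPM (1370.4 to 1604) in control and 2285 CPM (2148 to 2428) in telmisartan, overlapping neutrophil-like cells in both groups and above macrophage-like cells in both. *Egr2* was highest in macrophage-like cells, with the interval of dendritic-like cells overlapping in control (131 to 159 CPM against 155 to 163 CPM) and below it in telmisartan. T-like cells were below both in *Egr2*, and neutrophil-like cells had too few UMIs (10 and 4) to be placed. The *Atf3* levels of macrophage-like, dendritic-like and neutrophil-like cells overlapped in control. In telmisartan *Atf3* was higher in dendritic-like (464 to 525 CPM) than in macrophage-like cells (381 to 395 CPM), and T-like cells were lowest in both groups.

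The share of a level that free macrophage RNA could carry was worked out from *Lyz2*. If all *Lyz2* in a class were such RNA, and the members came with it at their macrophage ratio to *Lyz2*, it would account for 77.5% of the *Fos* and 65.9% of the *Atf3* level in T-like cells of both groups together, but 39.3% of *Fosb*, 12.5% of *Jund* and 18.5% of *Fosl2*. For *Egr2* in T-like cells, with 11 and 19 UMIs, the figure is 142% in control and 66.2% in telmisartan. For *Egr1* in neutrophil-like cells the figure is 0.862%. The split was computed after the levels had been seen.

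Dendritic-like cells comprise 3 clusters, with leading genes that include *Cd209a* (252 control and 216 telmisartan cells), *Fscn1* (61 and 48) and *Xcr1* (54 and 38), which did not all go the same way. Of 5876 genes with at least 100 UMIs there, 3.91% were at least 1.5-fold higher with telmisartan and 3.44% at least 1.5-fold lower, and of the 9 members among them 2 (*Fosb* and *Fosl2*) were higher by that size and 0 lower. *Fosb* had 931 CPM in control and 1447 CPM in telmisartan cells, a log2 ratio of 0.64 (0.56 to 0.71). *Fos* had 1816 CPM in control and 1274 CPM in telmisartan cells, a log2 ratio of -0.51 (-0.58 to -0.44). That value comes from the *Cd209a* cluster at -0.78 (-0.86 to -0.70), while *Fos* was higher with telmisartan in the *Fscn1* cluster, at 0.63 (0.24 to 1.01), and in the *Xcr1* cluster, at 0.24 (0.096 to 0.39). *Fosl2* had 209.9 CPM in control and 361 CPM in telmisartan cells, a log2 ratio of 0.78 (0.63 to 0.94). The log2 ratios of *Egr1* and *Atf3* in dendritic-like cells were 0.049 (-0.10 to 0.20) and 0.055 (-0.062 to 0.17), and both intervals include 0, but these sums also join unlike clusters. *Atf3* was at 1.45 (0.96 to 1.96) in the *Fscn1* cluster and -0.41 (-0.76 to -0.071) in the *Xcr1* cluster. *Egr1* was at 0.17 (0.0033 to 0.33) in the *Cd209a* cluster and -0.72 (-1.17 to -0.29) in the *Xcr1* cluster. Differences between these clusters were not tested. *Fosl1* had 6 UMIs in control and 19 in telmisartan dendritic-like cells.

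T-like cells, few and shallow, showed a split inside each family with wide intervals. *Fos* had 913 CPM in control and 416 CPM in telmisartan cells, a log2 ratio of -1.13 (-1.39 to -0.88), although most of its level there could be carried by free RNA as above. Of its control UMIs, 178 of 390 were in 3 cells, and of its telmisartan UMIs 74 of 189. *Fosb* had 395 CPM in control and 892 CPM in telmisartan cells, a log2 ratio of 1.17 (0.91 to 1.44), and free RNA could carry 63.1% of the control and 29.7% of the telmisartan level. Under the other processing choices the log2 ratio of *Fosb* in T-like cells ran from 0.29 to 1.43. After thinning to 500 UMIs, 26.8% of control and 28.9% of telmisartan T-like cells had a *Fosb* UMI. Over all T-like cells the log2 ratio was -0.95 (-1.35 to -0.55) for *Jun*, 0.89 (0.67 to 1.12) for *Junb* and 0.62 (0.48 to 0.77) for *Jund*. Under the other processing choices *Junb* ran from 0.30 to 1.01 and *Jund* from 0.028 to 0.72. In the smaller of the T-like clusters, led by *Foxp3*, the intervals of *Fosb* (-0.16 to 0.96) and *Jun* (-1.30 to 0.48) include 0. *Fosl1* had 0 UMIs in control T-like cells, which allows up to 8.63 CPM at the upper bound of the exact interval, and 2 in telmisartan cells, so no ratio was formed.

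In neutrophil-like cells the members' UMIs came from 48 control and 24 telmisartan cells. *Egr1* had 4886 CPM in control and 9520.4 CPM in telmisartan cells, a log2 ratio of 0.96 (0.77 to 1.15), from 472 and 450 UMIs. *Fosb* had a log2 ratio of 1.22 (0.74 to 1.70), with 56 of its 82 telmisartan UMIs in 3 cells. *Fos* was higher, at 3344 CPM in control and 4972 CPM in telmisartan cells and a log2 ratio of 0.57 (0.32 to 0.82). Of its telmisartan UMIs, 103 of 235 were in 3 cells, and of its control UMIs 79 of 323. *Jun* had a log2 ratio of 1.48 (1.09 to 1.87), but 76 of its 135 telmisartan UMIs were in 1 cell. With the cell of each group that held most *Jun* UMIs left out, chosen after seeing the data, the log2 ratio was 0.59. The log2 ratios of *Junb*, *Fosl1* (3 UMIs in each group), *Fosl2*, *Atf3* and *Egr2* in these cells have intervals that include 0.

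Enzymatic digestion at 37 °C itself induces immediate-early genes and heat shock chaperones in many tissues, so chaperone genes were read beside the members. Of 12 chaperone genes, 5 were higher and 7 lower with telmisartan in macrophage-like cells. By at least 1.5-fold, 1 was higher and 0 lower (over all genes 4.72% and 2.21%). The median log2 ratio of the 12 was -0.032 against -0.045 over all genes. Their summed level was 6316 CPM in control and 6534 CPM in telmisartan cells. *Hspa8*, with the most UMIs, had a log2 ratio of 0.13, *Hspd1* -0.53 and *Hspb1* 1.49. Macrophage-like cells were further divided, after seeing the data, into 3 bins of like size by the chaperone UMIs per 10000 of each cell, a continuous scale on which 724 and 723 cells lay within 5% of the bin edges at 46.9 and 65.8. The log2 ratio of *Egr1* was -0.027 in the lowest, 0.29 in the middle and 0.88 in the highest bin. *Egr2* was lower with telmisartan in the lowest bin, at -0.30 (-0.41 to -0.18), and higher in the highest, at 0.34 (0.25 to 0.43). *Fos* had -0.48, -0.61 and -0.38 and *Fosb* 0.43, 0.49 and 0.61 from the lowest to the highest bin. The part of digestion or handling in the differences between the pools was not tested.

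Cells left out for over 20% mitochondrial UMIs, 2623 in control and 4433 in telmisartan, were looked at after seeing the data. They were not divided into classes. In them *Fos* had 816 CPM in control and 801 CPM in telmisartan cells, a log2 ratio of -0.027 (-0.091 to 0.036). *Fosb* had a log2 ratio of 0.45 (0.39 to 0.52), *Junb* 0.25 (0.17 to 0.32), *Jun* -0.37 (-0.48 to -0.27) and *Egr1* 0.79 (0.65 to 0.94). *Fosl2*, at 0.018 (-0.10 to 0.14), was level in these cells. *Jund* was lower in them, at -0.11 (-0.16 to -0.046), beside 0.15 in the kept cells of all classes together.

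Likeness across cells was measured as the correlation (Pearson r of ln(1 + UMIs per 10000), taken within each group and averaged) with 6704 genes over 4049 control and 3994 telmisartan macrophage-like cells of 1 capture, as a description. *Fos* was most like *Zfp36* (0.51), *Dusp1* (0.51) and *Fosb* (0.39). *Fosb* was most like *Zfp36* (0.40), *Fos* (0.39) and *Junb* (0.38), and *Junb* most like *Zfp36* (0.42), *Fosb* (0.38) and *Nr4a1* (0.36). *Jun* was most like *Fos* (0.38), *Dusp1* (0.37) and *Atf3* (0.36), and *Atf3* most like *Fos* (0.38), *Jun* (0.36) and *Dusp1* (0.32). *Fosl2* had *Nr4a1* (0.29), *Cd14* (0.29) and *Vegfa* (0.27). *Egr1* had *Tnf* (0.29), *Dusp1* (0.28) and *Jun* (0.27), and *Egr2* had *Egr1* (0.25), *Il1a* (0.21) and *Nr4a1* (0.20). For *Egr1* the groups differed, with *Tnf*, *Dusp1* and *Jun* at 0.36, 0.37 and 0.35 in telmisartan cells. In control cells these 3 were at 0.22, 0.20 and 0.20, below *Egr2* at 0.25 and *Fosb* at 0.23. *Jund* had *Fosb* (0.31), *Plxdc2* (0.31) and *Zfp36* (0.29). *Fosl1* was in too few cells to be compared.

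Of 16 other basic leucine zipper genes, which encode possible partners or rivals of AP-1, 8 were higher and 8 lower with telmisartan in macrophage-like cells, with a median log2 ratio of 0.0097 against -0.045 over all genes. Those at least 1.5-fold higher were 3, and 0 were lower by that size (over all genes 4.72% and 2.21%). The 3 were the small MAF genes *Maff* (41.2 CPM in control and 85.7 CPM in telmisartan cells, log2 ratio 1.05) and *Mafk* (25.5 and 49.1 CPM, log2 ratio 0.95), and *Crem*, a cyclic AMP response gene (87.4 and 164 CPM, log2 ratio 0.91). Among EGR relatives and their NAB co-repressors, 3 of 4 had at least 100 UMIs, 2 higher and 1 lower, with a median of 0.13. Past 1.5-fold were 0 of these 3 (over all genes 4.72% higher and 2.21% lower). *Nab1* had a log2 ratio of 0.25 and *Egr3* of -0.19, while *Egr4* had 2 UMIs in control and 10 in telmisartan cells. The serum response factor, its partners and the MAP kinases that feed them gave 8 higher and 13 lower of 21. Their median was -0.037, and over all genes 42.9% were higher. Of the 21, 1 was at least 1.5-fold higher and 0 lower by that size, near the shares over all genes (4.72% and 2.21%). It was *Braf*, with 63.9 CPM in control and 97.6 CPM in telmisartan cells (log2 ratio 0.61). *Mapk3*, with the most UMIs, had a log2 ratio of 0.016. *Srf* itself had 14.6 CPM in control and 19.5 CPM in telmisartan cells (log2 ratio 0.41).

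Other immediate-early genes also went both ways. Of the 22 of 24 with at least 100 UMIs, 16 were higher and 6 lower with telmisartan, 10 at least 1.5-fold higher and 1 at least 1.5-fold lower (over all genes 4.72% and 2.21%), with a median log2 ratio of 0.32. *Zfp36*, which encodes an mRNA decay factor and has the most UMIs of this list, had 2688 CPM in control and 2237 CPM in telmisartan cells (log2 ratio -0.26). The largest differences upward were in *Dusp2*, a MAP kinase phosphatase (27.8 CPM in control and 95.1 CPM in telmisartan cells, log2 ratio 1.78), and in *Gadd45b* (log2 ratio 1.13). *Dusp6*, a phosphatase of ERK kinases, went the other way with 222 CPM in control and 138 CPM in telmisartan cells (log2 ratio -0.69).

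Of 18 genes with known AP-1 sites, 11 were higher and 7 lower with telmisartan, with a median log2 ratio of 0.19 against -0.045 over all genes. At least 1.5-fold higher were 4 and at least 1.5-fold lower 3 (over all genes 4.72% and 2.21%). *Il1b*, the gene of interleukin 1 beta and the one with the most UMIs, had 2778 CPM in control and 3563 CPM in telmisartan cells (log2 ratio 0.36). *Mmp9*, a gelatinase gene, had 209 UMIs in control and 15 in telmisartan cells, a log2 ratio of -3.37 (-4.24 to -2.62), and *Il6* had 18.7 CPM in control and 41.0 CPM in telmisartan cells (log2 ratio 1.13). Of 8 genes with known EGR sites, 7 were higher and 1 lower (over all genes 42.9% were higher), with a median of 0.18 against -0.045. Against 4.72% of all genes, 1 of the 8 was at least 1.5-fold higher. That was *Gdf15*, a stress cytokine gene (5.96 CPM in control and 20.1 CPM in telmisartan cells, log2 ratio 1.76), while *Thbs1*, with the most UMIs, had 1650 CPM in control and 2017 CPM in telmisartan cells (log2 ratio 0.29). *Nab2* is in this list and among the EGR co-repressors.

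Markers of other cell types were low in macrophage-like cells, given here as the summed level of each list in control and telmisartan. The 9 T cell markers summed to 13.5 and 15.0 CPM, led by *Skap1*, and the 6 neutrophil markers to 81.8 and 104 CPM, led by *Mmp8*. The 9 dendritic markers summed to 18.6 and 20.2 CPM, led by *Batf3*. Fibroblast markers (4 of 4 detected, led by *Col1a1*) summed to 7.82 and 14.0 CPM. Of these, 3 of the 3 with at least 100 UMIs were at least 1.5-fold higher with telmisartan (over all genes 4.72%). Endothelial markers (3 of 3, led by *Pecam1*) summed to 21.4 and 21.2 CPM, erythroid markers (2 of 2, led by *Hba-a1*) to 2.91 and 0.565 CPM, B cell markers to 2.02 and 2.54 CPM, and NK cell markers to 0.708 and 0.953 CPM. Tumor epithelial markers (4 of 5 in the table, led by *Epcam*) summed to 1.08 and 0.671 CPM, and mast cell markers to 0.184 and 0.106 CPM. The 6 monocyte markers, which the class includes, summed to 1367 and 1532 CPM, with 3 higher and 3 lower with telmisartan. Of the 6, 2 were at least 1.5-fold higher (over all genes 4.72%). The part of such cells in the members' differences was not tested.

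In the annotation, 5 of the 10 genes overlap another gene, all on the opposite strand. *Jun* (chr4:95049034-95052222) shares 689 bases with the antisense gene *Junos*, which had 2750 UMIs in control and 1451 in telmisartan macrophage-like cells, a log2 ratio of -0.49 beside -0.43 for *Jun*. *Junb* (chr8:84974484-84978718) shares 351 bases with *Prdx2*, whose log2 ratio was -0.044. *Jund* overlaps *Gm11175* (4 and 6 UMIs), *Fosl1* overlaps *Ccdc85b* (10 and 6 UMIs), and *Atf3* overlaps *Gm24748*, which is not in the table. The sources used here do not say whether counting used strand, so reads of such a pair cannot be told apart.

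Promoter windows of 300 bases (250 before and 50 after a transcription start) were taken from RefSeq on GRCm38.p6, where 8 of the 10 members matched. *Fosl1* and *Egr1* are named only. Both strands were searched for an AP-1 element (TGANTCA, in 7.81% of all 32851 promoter windows), a CRE-like element (TGACNTCA, 8.83%), the CArG box bound by serum response factor (1.63%), an EGR element (GCGNGGGCG, 5.55%) and a TATA box (TATAAA, 13.6%), none of which contains another. The windows of the lower genes *Fos* and *Jun*, of the higher genes *Fosb*, *Junb* and *Fosl2*, and 1 of 5 windows of *Egr2* are shown to set the pairs side by side, each 5′ to 3′ with the matched motif in capitals. *Jun* (chr4:95052173-95052472, minus strand) has a CRE-like element at bases 206 to 213 of its window. *Fosb* (chr7:19309996-19310295, minus strand) and *Fosl2* (chr5:32136222-32136521, plus strand) have an EGR element at bases 201 to 209 and 172 to 180. *Egr2* (chr10:67537619-67537918, plus strand) has a CArG box at bases 179 to 188, and 4 of its 5 windows, 3 of which overlap, hold one. *Fos* (chr12:85473640-85473939, plus strand) and *Junb* (chr8:84978699-84978998, minus strand) have TATAAA, at bases 218 to 223 and 251 to 256. In the windows of *Jund* and *Atf3* none of the 5 motifs was found, but their RefSeq starts lie away from the start of the GENCODE gene, before it for *Jund* and far inside it for *Atf3*, and the AP-1 element was in none of the members' windows. The window of *Fosl2* and the 4 windows of *Egr2* with a CArG box also lie inside the GENCODE gene, past its start. A match is a description of these letters, and no match says only that the letters are not in the window.
Fos: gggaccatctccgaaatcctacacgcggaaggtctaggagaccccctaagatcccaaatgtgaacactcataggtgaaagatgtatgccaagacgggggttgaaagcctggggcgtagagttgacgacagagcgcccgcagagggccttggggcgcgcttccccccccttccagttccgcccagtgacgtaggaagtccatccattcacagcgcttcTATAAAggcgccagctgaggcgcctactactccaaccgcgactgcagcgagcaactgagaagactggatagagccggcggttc
Jun: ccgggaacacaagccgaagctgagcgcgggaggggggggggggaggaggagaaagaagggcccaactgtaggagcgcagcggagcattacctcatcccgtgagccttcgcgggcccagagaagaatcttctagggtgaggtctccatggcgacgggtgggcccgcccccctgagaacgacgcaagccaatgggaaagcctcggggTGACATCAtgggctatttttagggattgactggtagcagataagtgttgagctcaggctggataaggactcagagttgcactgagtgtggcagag
Fosb: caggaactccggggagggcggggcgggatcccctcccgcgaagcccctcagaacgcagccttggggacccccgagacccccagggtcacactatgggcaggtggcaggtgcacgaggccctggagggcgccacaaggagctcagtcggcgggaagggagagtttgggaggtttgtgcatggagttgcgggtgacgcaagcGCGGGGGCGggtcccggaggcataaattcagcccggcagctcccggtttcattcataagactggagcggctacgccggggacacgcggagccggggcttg
Junb: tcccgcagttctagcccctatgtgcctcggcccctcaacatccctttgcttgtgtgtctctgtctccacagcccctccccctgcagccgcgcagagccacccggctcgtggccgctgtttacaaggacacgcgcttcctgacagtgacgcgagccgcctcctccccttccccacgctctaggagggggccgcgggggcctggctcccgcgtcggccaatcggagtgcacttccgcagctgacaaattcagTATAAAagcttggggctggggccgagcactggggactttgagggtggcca
Fosl2: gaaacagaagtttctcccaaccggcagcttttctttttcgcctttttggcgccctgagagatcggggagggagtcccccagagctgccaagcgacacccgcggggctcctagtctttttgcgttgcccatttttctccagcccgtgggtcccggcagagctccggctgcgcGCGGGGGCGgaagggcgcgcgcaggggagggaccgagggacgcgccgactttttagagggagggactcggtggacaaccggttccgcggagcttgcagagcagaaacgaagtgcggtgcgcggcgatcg
Egr2: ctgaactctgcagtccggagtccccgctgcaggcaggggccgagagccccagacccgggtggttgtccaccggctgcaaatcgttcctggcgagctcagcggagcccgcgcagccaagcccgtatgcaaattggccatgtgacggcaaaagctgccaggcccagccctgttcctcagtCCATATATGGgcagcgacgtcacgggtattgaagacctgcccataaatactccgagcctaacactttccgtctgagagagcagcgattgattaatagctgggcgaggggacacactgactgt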

How the data were processed

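The deposited values are UMI counts by gene, and read counts by Sample Tag, for 20726 putative cells. Per the file headers the authors made them with the BD Rhapsody WTA pipeline (GRCm38, GENCODE M19), without normalization. Tag calls (75% of 10 or more reads), limits (150 to 5000 genes, 20% mitochondrial UMIs) and the removal of the 942 highest Scrublet scores (scanpy 1.11.5) left 8969 cells.

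Seurat 5.3.0 in R 4.3.3 clustered them (resolution 0.5) on variable genes other than the 10 members, and clusters became dendritic-like, T-like or neutrophil-like by markers and otherwise macrophage-like. Macrophages and monocytes were made 1 class after the clusters had been seen, with a cluster of 1063 cells of low depth (0.320 of the medians of its samples) in it. Subclusters came from resolution 0.4, the lowest to give 6 or more.

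Sums and intervals (Poisson, Clopper-Pearson, conditional binomial, all exact) were made in Python 3.11.15 with numpy 2.4.6, scipy 1.17.1, pandas 2.3.3 and matplotlib 3.10.9. The intervals of the log2 ratios were checked on sums simulated with counting error only. That check leaves out the uneven spread of UMIs over cells. Other scalings included TMM factors from edgeR 4.0.16. GENCODE M21 gave gene positions. Genes named are the 10 members and, for each list, those with the most UMIs or the largest differences among genes with at least 100 UMIs; *Srf*, *Egr3*, *Egr4* and *Nab2* are named for their function. Members and lists were chosen with earlier results of these data known. Splice forms, protein and tumor growth were not analysed.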

Additional observations from a re-analysis of the deposited data

Results flagged for a closer look

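Of the 10 genes, 2 had log2 ratios on opposite sides of 0 in different cell classes, with each interval clear of 0. *Fos* was at 0.57 in neutrophil-like cells and at -1.13 in T-like cells, and *Jun* at 1.48 and -0.95. The *Jun* value in neutrophil-like cells rests in good part on 1 cell, as given above. Both *Fos* values also draw on few cells. In telmisartan neutrophil-like cells 3 cells held 103 of 235 *Fos* UMIs, and in control T-like cells 3 cells held 178 of 390. For *Jun* in T-like cells, 3 cells held 61 of 154 UMIs in control and 21 of 85 in telmisartan.

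Among the macrophage subclusters, 5 genes had log2 ratios of opposite sign, each with intervals clear of 0. *Fos* was at 0.074 in subcluster 4 (*Serpinb2*, *Il6*) and -0.83 in subcluster 7 (DNA replication genes). *Atf3* was at 0.17 and -0.70 in the same pair. *Jund* was at 0.13 in subcluster 6 and -0.17 in subcluster 7. *Egr1* was at 0.97 in subcluster 2 (*Gas6*, *Cbr2*) and -0.24 in subcluster 1 (*Dcstamp*, *Lilra6*). *Egr2* was at 0.40 and -0.19 in those 2 subclusters. These differences between classes and between subclusters were not tested, since each group is 1 pool.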

How the results depend on the processing

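The values were recomputed with other limits on tag reads, genes and mitochondrial UMIs, with no doublets removed, at other clustering resolutions, with other ways of scaling, at equal depth, and without the cluster of lowest depth. Under these, the log2 ratio in macrophage-like cells kept its sign for *Fos* (-0.87 to -0.38), *Jun* (-0.84 to -0.35), *Atf3* (-0.71 to -0.23), *Fosb* (0.13 to 0.56), *Fosl1* (1.32 to 1.90), *Fosl2* (0.22 to 0.68), *Junb* (0.046 to 0.48) and *Egr1* (0.15 to 0.63). Without scaling for depth, *Jund* turned to -0.28 in macrophage-like and -0.00050 in dendritic-like cells, *Fosl2* in T-like cells to -0.046 and the members' median to -0.12, with 1 member at least 1.5-fold higher and 3 lower, a shift that includes the lower depth of the telmisartan cells (over all genes, 91.2% were lower in place of 57.1%, 1.32% at least 1.5-fold higher and 28.6% at least 1.5-fold lower). Thinning to 1000 UMIs moved the median to 0.32 and turned dendritic-like *Fosl1* to -0.70 and *Jun* to 0.028. Without the cluster of lowest depth the median was 0.26. At resolution 0.8, a shallow cluster of 798 cells (324 control and 474 telmisartan) got no class and was left out of the macrophage-like sums. A mitochondrial limit of 10% gave 3 members at least 1.5-fold higher (over all genes 5.01%). At a fold of 2, which asks for more, 1 member was higher and 0 lower (over all genes 1.28% and 0.325%). Among alternatives chosen after seeing the data, depth ranges from shallow to deep gave medians of 0.15, 0.24, 0.18 and 0.14, with 1 member at least 1.5-fold lower at 4000 to 8000 UMIs and 3 at 16000 or more (over all genes 5.67% and 7.66%), and *Fos* at 0.0035 in the shallowest. At least 1.5-fold higher were *Fosl1* in every range, *Egr1* in the shallowest, *Fosb* at 4000 to 8000 UMIs and *Fosl2* from 8000 UMIs on. Over all genes that share was 11.7%, 6.55%, 4.56% and 7.45% from shallow to deep. The mean over subclusters gave a median of 0.23 and 1 member at least 1.5-fold higher (over all genes 3.39%). The small classes are limited by depth, with 96599 and 47267 UMIs in neutrophil-like cells. No paired analysis was possible because each group is 1 pool.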
